A study of Mus musculus with 3 samples.

Results

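The Orai and Stim genes encode the core machinery of store-operated calcium entry, and the 5 of them (Orai1, Orai2, Orai3, Stim1 and Stim2) were examined among 21887 protein-coding genes for sites of the zinc finger protein ZFP410 in mouse brown preadipocytes. The family was chosen by the peak calls at Orai2, which has a peak in both ZFP410 lists, so the Orai2 values below describe the choice and carry no test. For each gene, every peak whose summit lay inside the gene or within 10 kb of it was collected from each library. A peak counted as a gene-end peak when its summit lay within 1 kb of the first or last base of the gene. This gave 3 peaks of 7475 in the library of induced cells, 1 of 3256 in that of untreated cells and 0 of 480 in the IgG library.

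Store-operated calcium entry refills the calcium of the endoplasmic reticulum. STIM1 and STIM2 are proteins of the reticulum membrane that sense the calcium inside it, and when it runs low they gather under the plasma membrane and open channels built from ORAI subunits. ORAI1 is the best known pore subunit, and ORAI2 and ORAI3 are its paralogs. In mouse T cells ORAI2 is known to join ORAI1 in mixed channels and to lower the current they carry. ZFP410 is known for very selective binding, with Chd4 as its main target in other cells.

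The cells were Lin−CD29+CD34+Sca1+ preadipocytes sorted from brown fat of male wild-type C57BL/6 mice and grown in culture. Binding was mapped by CUT&Tag, in which a transposase held by an antibody inserts sequencing adapters into the DNA next to the target. Cells kept for 3 days in medium for brown adipocyte differentiation (induced) and untreated cells gave 1 ZFP410 library each, and untreated cells also gave 1 IgG library. No induced IgG library was analysed here, and the number of mice behind each culture is not given in the sources used here. With 1 library a group, no difference has a replicate check, and the intervals given cover counting error only.

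The peak lists used here give no read counts, but each peak's fold and p-value together gave back the whole number of fragments over its summit and the local background set by the peak caller. The genome-wide background was 0.246 fragments in the induced, 0.110 in the untreated and 0.0231 in the IgG library, so the induced one was the deepest. The median summit held 7 fragments in the induced, 4 in the untreated and 4 in the IgG list. The weakest held 4 in the induced, 3 in the untreated and 2 in the IgG list. A site of equal enrichment was thus more readily listed in the induced library. Enrichment below is summit fragments divided by the genome-wide background of the same library. Peaks of a DNA-binding protein do not measure expression, so the cell type label could not be checked. None of the sort marker genes Itgb1, Cd34 and Ly6a had a gene-end peak in any list.

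The RefSeq sequence around the start site is shown for the genes on which the results turn, from 250 bases before to 50 after the annotated start (GRCm38.p6, the same coordinates as mm10). Orai2 is shown because its window was the only one of the 5 members to lie under a peak, Orai1 and Orai3 because they are the channel genes whose windows did not, and Setd1a because its start is the nearest to the peak beside Orai3. The windows are at chr5:136170607-136170906 on the minus strand (Orai2), and on the plus strand at chr5:123014824-123015123 (Orai1), chr7:127769565-127769864 (Orai3) and chr7:127777139-127777438 (Setd1a). Capitals mark the E-box CACGTG, the CCAAT box and the GC box GGGCGG on either strand.
Orai2: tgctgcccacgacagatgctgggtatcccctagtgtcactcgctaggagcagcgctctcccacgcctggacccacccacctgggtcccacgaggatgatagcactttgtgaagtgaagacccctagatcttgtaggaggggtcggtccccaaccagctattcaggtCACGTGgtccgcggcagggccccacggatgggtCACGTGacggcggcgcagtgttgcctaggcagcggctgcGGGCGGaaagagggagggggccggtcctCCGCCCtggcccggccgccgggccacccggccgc
Orai1: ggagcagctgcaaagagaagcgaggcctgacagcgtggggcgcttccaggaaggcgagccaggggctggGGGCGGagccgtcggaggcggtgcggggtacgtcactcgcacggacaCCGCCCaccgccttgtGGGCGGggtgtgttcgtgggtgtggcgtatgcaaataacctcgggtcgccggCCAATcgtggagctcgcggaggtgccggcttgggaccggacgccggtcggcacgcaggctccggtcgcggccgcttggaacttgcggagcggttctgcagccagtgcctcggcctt
Orai3: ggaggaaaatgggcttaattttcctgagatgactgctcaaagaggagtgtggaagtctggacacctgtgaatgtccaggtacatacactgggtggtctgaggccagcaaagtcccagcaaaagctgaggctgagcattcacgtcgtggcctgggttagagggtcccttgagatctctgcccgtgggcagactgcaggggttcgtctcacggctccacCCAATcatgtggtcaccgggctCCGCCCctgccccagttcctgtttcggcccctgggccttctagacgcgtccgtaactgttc
Setd1a: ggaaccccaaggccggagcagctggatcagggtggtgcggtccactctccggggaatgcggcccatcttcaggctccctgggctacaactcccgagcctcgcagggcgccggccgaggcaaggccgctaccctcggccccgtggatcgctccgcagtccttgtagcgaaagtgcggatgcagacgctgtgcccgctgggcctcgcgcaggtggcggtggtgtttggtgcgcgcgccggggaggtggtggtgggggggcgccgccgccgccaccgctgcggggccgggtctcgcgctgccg

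Orai2 carried the strongest site of the family, just upstream of its start. The gene lies on the minus strand of chromosome 5 at 136147456 to 136170697 (23.2 kb), so its start is at the upper end. The induced peak ran over chr5:136171100-136171975 with its summit at 136171419, and the untreated peak over chr5:136171095-136171746 with its summit at 136171422. The summit held 51 fragments in the induced library (95% Poisson interval 38.0 to 67.1) and 18 in the untreated one (10.7 to 28.4), and IgG had no peak there. By the authors' fold, 34.3 in the induced and 15.4 in the untreated list, the peak ranked 34 of 7475 in the induced and 33 of 3256 in the untreated list. By fragments it ranked lower, 113 in the induced and 96 in the untreated list.

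**Figure D1:**
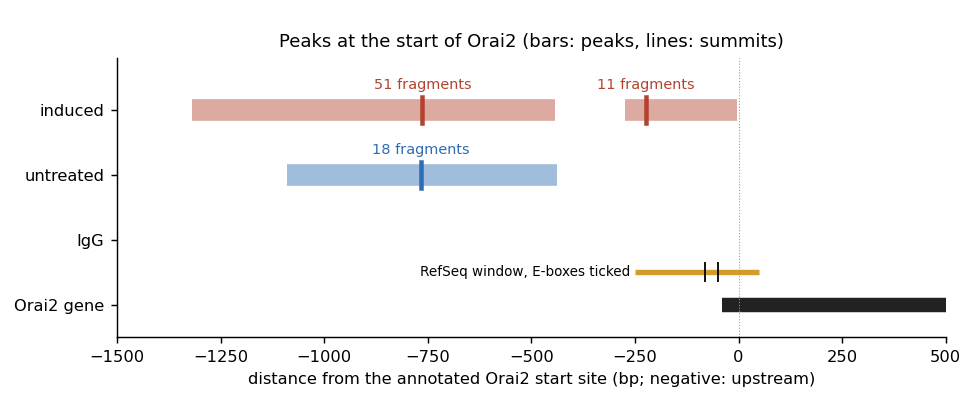
Peaks around the annotated Orai2 start site, with distance from the start in bp on the horizontal axis (negative values are upstream) and the 3 libraries as rows. Shaded bars are peaks and dark lines their summits. The large peaks of the induced and untreated lists share their summit position within 3 bp, the smaller induced peak of 11 fragments covers most of the RefSeq window, and the IgG row is empty.

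The large Orai2 peaks matched closely in position. Their summits lay 3 bp apart, 763 bp upstream of the start in the induced and 766 bp upstream in the untreated library. They began 5 bp apart and shared 647 bp, which is 73.9% of the induced peak (876 bp wide) and 99.2% of the untreated peak (652 bp wide). The induced peak was the wider because it ran 229 bp further upstream. Among 422 pairs of overlapping peaks whose untreated member was a gene-end peak, the median distance between summits was 63 bp (quartiles 22 and 135), and 11.6% lay within 3 bp. Of the 53 such pairs with at least 10 untreated fragments, 26.4% lay within 3 bp, with a median of 23 bp.

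Relative to the genome-wide background, the Orai2 summit was enriched 207-fold in the induced and 164-fold in the untreated library. The ratio of induced over untreated was 1.26 (exact binomial 95% interval 0.726 to 2.30). The interval includes 1, and equal enrichment would have put 40.3 fragments at the induced summit where 51 were found. The interval covers counting error only, not the choice of scale, and Orai2 was chosen for its peaks in both lists. It is therefore not read as a test of a difference between the libraries. Over the 422 gene-end pairs the median ratio was 0.816 (quartiles 0.625 and 1.14), and 71 pairs (16.8%) had a ratio above that of Orai2. Of the 53 pairs with at least 10 untreated fragments, 10 (18.9%) did, with a median ratio of 0.893 (quartiles 0.609 and 1.16). Only pairs listed in both libraries enter these ratios, and the weakest peaks held 4 induced and 3 untreated fragments. The local background at the summit was raised, to 0.517 fragments in the induced and 0.231 in the untreated library, each 2.101 times the genome-wide value. Of gene-end peaks, 17.5% of the induced and 12.7% of the untreated list had a local background more than 2 times the genome-wide one. Equal multiples were common in these lists. Among 129 overlapping pairs with summits at most 20 bp apart and a multiple above 1.1 in either list, 81 (62.8%) had multiples within 1% of each other. The sources used here do not say which control the caller had. Whether the local background counts ZFP410 fragments or those of a control common to both lists was not tested. Over its own local background the summit stood 98.6-fold in the induced and 77.9-fold in the untreated library.

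**Figure D2:**
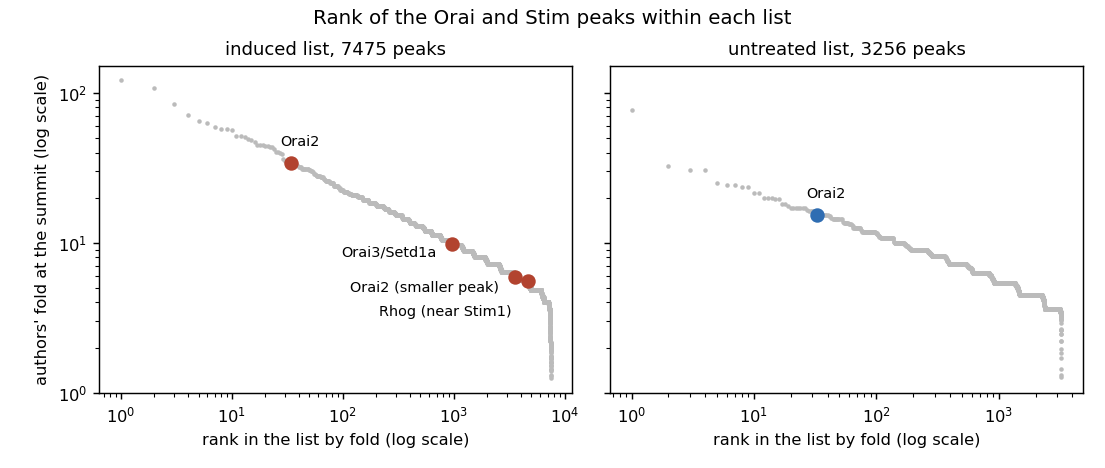
The authors' fold at each summit against its rank in the induced list (left) and the untreated list (right), both axes on log scales. Grey points are all peaks and coloured points those at or next to the Orai and Stim genes. The large Orai2 peak sits at rank 34 in the induced and 33 in the untreated list, while the other labelled peaks lie at ranks 972 to 4618 of the induced list.

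Among gene-end peaks alone, Orai2 ranked 5 of 1590 by fold in the induced list and 8 of 726 in the untreated list. By fragments it ranked 8 in the induced list, where the median gene-end summit held 7, and 11 in the untreated list, where it held 5. It was also wide, at rank 34 of the induced and 15 of the untreated gene-end peaks, where the median width was 282 bp in the induced and 214 bp in the untreated list. Genes with a gene-end peak made up 8.43% of all protein-coding genes in the induced list, 3.73% in the untreated list and 0.0366% in the IgG list, and 2.40% had one in both ZFP410 lists. Of the 5 members 1 (Orai2) was in each ZFP410 list and 0 in the IgG list. Nothing is read from that count, since the peaks of Orai2 led to the choice of the family.

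A second, smaller peak lay nearer to the Orai2 start in the induced library only. It ran over chr5:136170659-136170931 with its summit at 136170879, 223 bp upstream of the start, and 168 bp separated it from the large peak. It held 11 fragments (95% Poisson interval 5.49 to 19.7), or 21.6% of the large one, over a local background of 1.03 fragments, and ranked 3553 by fold. Equal enrichment would have given 4.91 fragments in the untreated library. That is above the 3 of its weakest peak, but the local background here was 4.20 times the genome-wide one, and the untreated list names no value at this position. With both peaks Orai2 was 1 of 114 genes with at least 2 gene-end peaks in the induced list, 0.521% of all genes and 6.18% of those with any gene-end peak.

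The smaller peak covered 248 of the 300 bases of the Orai2 window shown above, and its summit fell on base 28 of it, counted from the 5′ end. The window holds 2 E-boxes, at bases 167 to 172 and 200 to 205, which begin 84 and 51 bp upstream of the start. E-boxes are bound by basic helix-loop-helix factors such as USF1, TFE3 and MYC. Of 21263 windows of protein-coding genes, 7.84% hold CACGTG on either strand (the motif is its own reverse complement) and 0.748% hold at least 2. Among windows with an induced summit within 1 kb of the start the share was 10.4% (192 of 1838), and with an untreated summit 9.73% (78 of 802). Both Orai2 boxes sit in the longer GTCACGTG, which contains CACGTG and was found in 2.84% of all windows and in 4.79% of those with an induced summit within 1 kb. The windows of Orai1, Orai3, Stim1, Stim2 and Setd1a held neither form. These motifs were chosen with the sequences in view, and a match does not show that a factor was bound.

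Parts of the known ZFP410 motif were searched on both strands as CATCCCA and CCCATAA, which overlap in the letters CCCA. They occurred in 4.41% and 2.41% of all windows, in 3.65% and 2.12% of those with an induced summit within 1 kb, and in 3.37% and 2.49% of those with an untreated one. Neither was found in the windows of the 5 members, of Setd1a or of Rhog. The summit of the large Orai2 peak lies outside its window, and the bases under it were not analysed here. The GC box GGGCGG, present in 46.2% of all windows and 69.9% of those with an induced summit within 1 kb, matched 2 times in Orai2, 3 times in Orai1, 1 time in Orai3, 8 times in Stim1 and 3 times in Stim2. CCAAT, present in 38.2% of all and 44.5% of these windows, matched 1 time each in Orai1, Orai3 and Stim2. The short element TGACG, present in 23.6% of all and 39.4% of these windows, matched 1 time each in Orai1, Orai2 and Stim1, and in Orai2 it overlaps the second E-box.

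The base composition of the Orai2 window lay within the range of the members without a peak at their start. It had 68.0% G or C and 24 CpG. The others were at 57.7% and 11 CpG (Orai3), 70.3% and 36 (Orai1), 76.7% and 39 (Stim2) and 78.7% and 38 (Stim1). The median over all windows was 56.3% and 13 CpG, and over windows with an induced summit within 1 kb of the start 62.3% and 23. Stim1, Stim2 and Orai1 thus had windows richer in CpG than the typical window near an induced summit, and no peak.

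Orai3, the smallest member (5.34 kb, chromosome 7, 127769815 to 127775150, plus strand), had a nearby peak in the induced list alone. It lay at chr7:127776570-127777348 with its summit at 127776900, beyond the far end of the gene by 1750 bp and 7085 bp from its start. The summit held 15 fragments (95% Poisson interval 8.40 to 24.7) over a local background of 0.632, a fold of 9.80 and rank 972. The same summit was 489 bp upstream of the start of Setd1a, which encodes a histone H3 lysine 4 methyltransferase, and 210 of the 300 bases of the Setd1a window shown above lie under the peak. The summit was thus nearer to the start of Setd1a than to any base of Orai3.

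Neither Setd1a nor Orai3 had an untreated peak nearby. The closest untreated summit was 100.6 kb from Orai3. Equal enrichment would have put 6.70 fragments into the untreated library, above its weakest called number of 3 though over a local background 2.57 times the genome-wide one. Whether occupancy differed between the cultures was not tested, as each had 1 library. The Orai3 start, 332 bp beyond the end of Fbxl19, had no summit within 1 kb in any list.

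**Figure D3:**
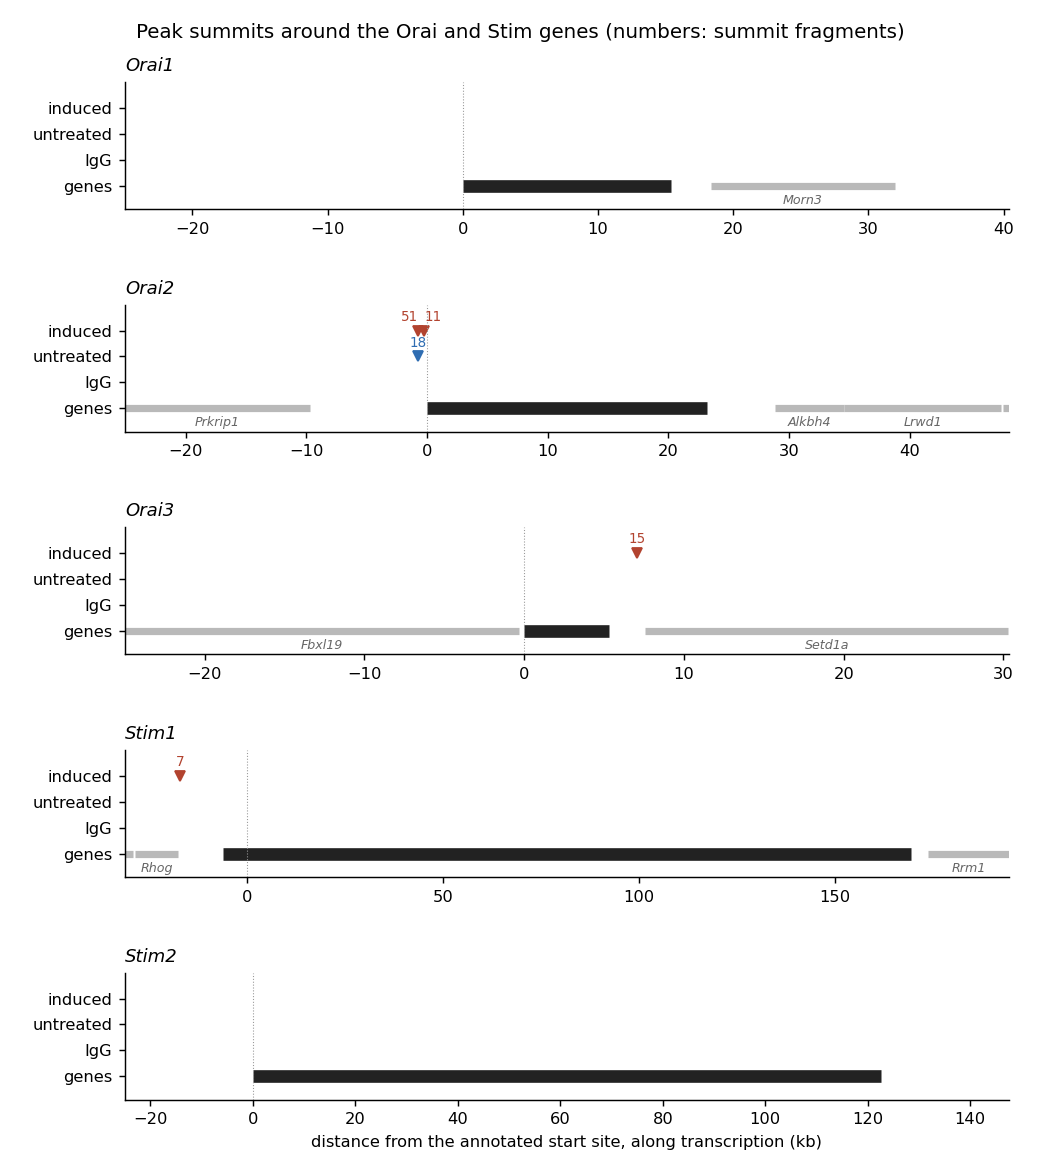
Summits of all peaks around the 5 genes, with distance from the annotated start site in kb along the direction of transcription, a panel per gene and a row per library. Triangles are summits with their fragment numbers, black bars the members and grey bars neighbouring protein-coding genes. Summits lie at the start of Orai2, between Orai3 and Setd1a and beside Rhog, and the panels of Orai1 and Stim2 hold none.

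Stim1, at 102261514 to 102437319 on chromosome 7, and Stim2, at 53998523 to 54121057 on chromosome 5, had no peak inside them or within 10 kb in any list. They are the longest members, at 175.8 and 122.5 kb. Of the 2429 protein-coding genes of at least 100 kb, 39.7% had such a peak in the induced and 21.4% in the untreated list, against 0 of these 2. The induced summit nearest to Stim1 was just outside the bound, 10959 bp from the gene. It held 7 fragments (chr7:102250541-102250736, rank 4618) and was 437 bp upstream of the start of Rhog, a small GTPase gene. An equal enrichment would have given 3.12 fragments there in the untreated library, close to its weakest called number. The untreated summit nearest to Stim1 was 355.5 kb away, and those nearest to Stim2 were 322.4 kb away in the induced and 408.2 kb away in the untreated list.

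Orai1, the principal channel gene (15.4 kb, chromosome 5, 123015074 to 123030452), also had no peak inside it or within 10 kb. The nearest summit was 110.5 kb away in the induced list, where it held 7 fragments, and 314.0 kb away in the untreated list, where it held 4. Over all protein-coding genes the median distance to the nearest summit was 82.2 kb (quartiles 16.7 and 226.4) in the induced and 192.9 kb (55.7 and 541.6) in the untreated list. Orai1 and Stim2 thus lay farther from a summit than the median gene in both lists, and Orai2 and Orai3 nearer in both. The nearest IgG summits were 862.4 kb from Stim2 and more than that from the other members.

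Counted over the family, 2 of 5 genes (Orai2 and Orai3) had an induced peak inside or within 10 kb, 1 of 5 (Orai2) an untreated one and 0 of 5 an IgG one. The shares over all protein-coding genes were 21.3%, 11.1% and 0.690%. With the window placed around annotated start sites instead of gene ends, 1 of 5 members (Orai2) had a summit within 1 kb in both ZFP410 lists, against 8.89% of 17492 genes in the induced and 3.94% in the untreated list. Nothing is read from these counts either, since the peaks of Orai2 led to the choice of the family. The Orai3 peak, moreover, lay nearer to the start of Setd1a. Measured from the bounds, the Orai2 summits lay 722 and 725 bp from the gene end in the induced and untreated lists, inside 1 kb, and the Orai3 summit at 1750 bp was the first outside it. The IgG library was shallow, and 4.78 fragments would have been expected in it at the Orai2 site from the induced and 3.78 from the untreated enrichment, where its weakest peak held 2.

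No other protein-coding gene had an end within 1 kb of an Orai2 summit. On the start side the next gene, Prkrip1, a gene of RNA splicing, ended 9660 bp from Orai2 and 8938 bp from the large induced summit. On the other side Alkbh4, a dioxygenase gene of the AlkB family, lay 5656 bp from Orai2, and the summits nearest to it were those at Orai2.

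Genes whose gene-end sites were like Orai2 were sought among 524 others with a gene-end peak in both ZFP410 lists and none in IgG, by the distance in log2 enrichment over the 2 libraries. Closest came Pgam1, a phosphoglycerate mutase of glycolysis, at a distance of 0.19, with 58 induced and 18 untreated fragments. Txn1, encoding thioredoxin, held 50 induced and 22 untreated fragments. Ankhd1, an ankyrin repeat protein gene, held 47 induced and 22 untreated, and Slc38a2, an amino acid transporter gene, 46 induced and 22 untreated, at a distance of 0.33. Their induced over untreated ratios ran from 0.933 (Slc38a2, 95% interval 0.550 to 1.63) to 1.44 (Pgam1, 0.835 to 2.59), and each of the 4 intervals included 1. These genes were chosen by closeness to Orai2 in the same 2 enrichments. Ratios and intervals like those of Orai2 thus follow from the choice. The local background in the induced list was higher at all 4 than at Orai2, from 3.64 times the genome-wide value at Ankhd1 to 33.0 times at Slc38a2. In the untreated list it was 9.34 times at Slc38a2. By fold the Slc38a2 peak ranked only 4780 in the induced and 103 in the untreated list, so its likeness to Orai2 holds for genome-wide enrichment alone.

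**Figure D4:**
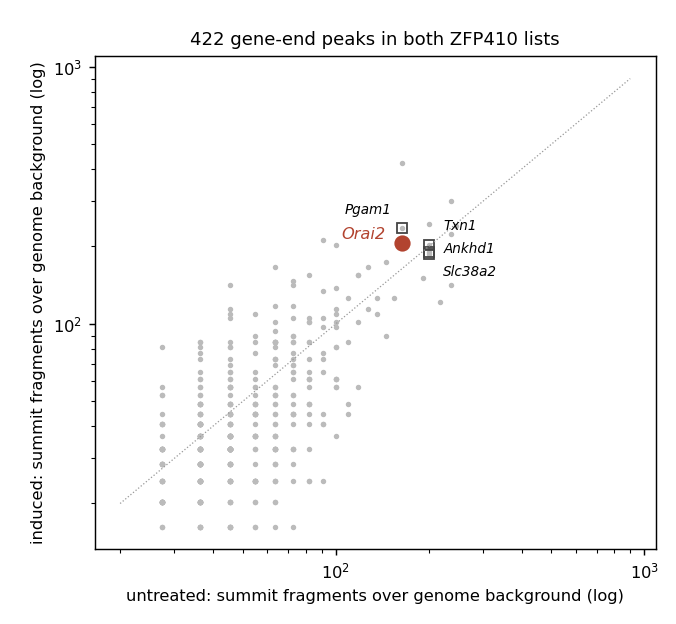
Enrichment (summit fragments over the genome-wide background) in the induced library against the untreated library, on log axes, for 422 gene-end peaks found in both lists. The filled circle is Orai2 and open squares the 4 similar genes Pgam1, Txn1, Ankhd1 and Slc38a2, and the dotted line marks equal enrichment. Orai2 lies near the upper end of both axes, at 207 in the induced and 164 in the untreated library, close to the line.

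Other genes of cellular calcium were read from 6 lists, of which 65 members were used. Gene-end peaks were found at 6 of 65 in the induced, 2 of 65 in the untreated and 0 of 65 in the IgG list, beside the shares of 8.43%, 3.73% and 0.0366% of all genes given above. Most of the induced ones came from the list of mitochondrial genes, with 5 of 11 in the induced and 1 of 11 in the untreated list. It holds genes of the calcium uniporter, of exchangers and of outer membrane pores, so it is not a list of calcium uptake alone. Of 15 genes of calmodulin, calcineurin and NFAT 1 had a gene-end peak in each list, and it was not the same gene. The 14 regulators of store-operated entry, the 7 TRPC channels, the 11 release channels and pumps of the store, and the 7 extrusion pumps and exchangers had no gene-end peak in either. Among the store-entry regulators are Saraf, which helps to switch STIM off, Stimate, which activates it, and Cracr2a, which stabilises the channel complex.

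Of the mitochondrial genes, Vdac2, encoding a pore of the outer membrane, was the one with a gene-end peak in both lists, of 11 induced and 6 untreated fragments. These peaks overlapped, and the ratio of enrichment was 0.818 (95% interval 0.277 to 2.69). Slc8b1, the mitochondrial sodium-calcium exchanger, held 8 fragments, Vdac3 7, Smdt1, the EMRE subunit of the calcium uniporter, 6, and Letm1, an inner membrane cation exchanger gene, 5, all in the induced list only. At equal enrichment these would have held 2.23 to 3.57 fragments in the untreated library, so their absence from that list says little at its depth.

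In the calcineurin pathway Calm3, a calmodulin gene, had a gene-end peak of 7 fragments in the induced list only, 562 bp upstream of its start. Ppp3cb, a calcineurin catalytic subunit gene, had one of 4 fragments in the untreated list only, and equal enrichment would have put 8.96 into the induced library.

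Some calcium genes without a gene-end peak had stronger sites inside them, and those that follow were picked after their values were seen. Within 10 kb or inside, 17 of 65 genes had an induced peak, 10 of 65 an untreated and 2 of 65 (Asph and Tmco1) an IgG one, where the shares over all genes were 21.3%, 11.1% and 0.690%. The listed genes are long, with medians of 27.3 to 122.9 kb by list against 17.2 kb over all protein-coding genes. Whether length bears on these counts was not tested. Rcan1, which encodes an inhibitor of calcineurin, held 6 induced and 3 untreated peaks inside its 74.2 kb on chromosome 16. The strongest induced one had 29 induced and 9 untreated fragments, at chr16:92399889-92400672 in the induced list (rank 84), with its summit 342 bp upstream of an internal start site, and the untreated summit lay 136 bp upstream of it. Their ratio was 1.44 (95% interval 0.663 to 3.45). The strongest untreated peak was another, of 13 induced and 10 untreated fragments, with a ratio of 0.580 (0.235 to 1.48), and the last overlapping pair had 6 induced and 4 untreated fragments and a ratio of 0.670 (0.159 to 3.23).

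Ryr1, the calcium release channel of skeletal muscle, had overlapping peaks of 14 induced and 6 untreated fragments whose summits were 3 bp apart, with a ratio of 1.04 (95% interval 0.376 to 3.31). Itpr2, an inositol trisphosphate receptor gene, had a pair of 9 induced and 4 untreated fragments with a ratio of 1.00 (0.280 to 4.46). The intervals at Rcan1, Ryr1 and Itpr2 include 1, and none of these pairs reached the fragments of Orai2.

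**Figure D5:**
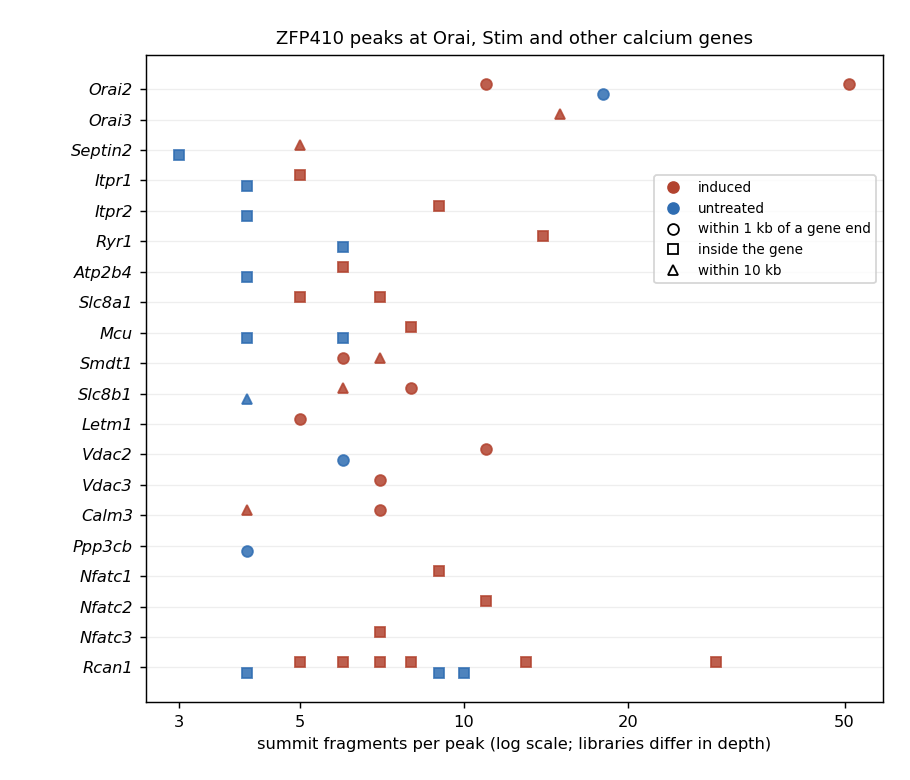
Summit fragments of every ZFP410 peak inside or within 10 kb of the Orai and Stim genes and the listed calcium genes that have any, on a log axis, with induced peaks in red and untreated peaks in blue. Circles are gene-end peaks, squares peaks inside genes and triangles peaks within 10 kb. The induced Orai2 peak of 51 fragments is the highest value plotted, followed by Rcan1 at 29.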

How the data were processed

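CUT&Tag peak lists of 3 libraries (induced, untreated, IgG) were analysed, 1 per group, as grouped by the labels. The submitters' processing notes name Bowtie2 2.2.6, Picard, MACS2 2.1.1 and mm10, and a q threshold of 0.1 stands in the deposited peak names. The sources used here do not say which control the caller had or how duplicates were treated. The deposited lists give per peak a score, the fold over local background (a ratio), the p-value and q-value as −log10, and the summit. These are the authors' values and were used within a list, except for 1 alternative that divides the folds of both lists.

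Here the whole summit fragments and local background were solved from fold and p-value (MACS2 adds 1 to both in the fold). A solution within 0.001 in −log10 p was found for 7474 of 7475 induced, 3255 of 3256 untreated and 480 of 480 IgG peaks. The step was also run on simulated peaks written with the same formulas, which checks the solving but not the formulas. Ratios of induced over untreated were scaled by the 2 genome-wide backgrounds, which differed 2.24 times, against 2.01 times for depth. Genes, start sites and sequences came from RefSeq tables of GRCm38.p6, which matched all 5 members. Peaks overlapped from 1 bp. Python 3.11.15 and SciPy 1.17.1 were used. Fragments of a library are not replicates, so intervals cover counting error only.

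The members and gene lists were chosen with earlier results of these data known. Named genes were the members, genes at their peaks, the neighbours of Orai2, listed calcium genes with a gene-end peak and 4 of the genes most like Orai2, without predicted genes, of which 0 had to be skipped. A gene like Orai2 and a gene of the calcium lists are not reported here. Alternatives changed the window, the peak threshold, the overlap rule and the scale.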

Additional observations from a re-analysis of the deposited data

How the results depend on the processing

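Of 47 alternative values 34 equalled the reported one, IgG counts that stayed at 0 among them, and the other 13 follow. The Orai2 ratio of induced over untreated was 1.41 scaled by relative depth (95% interval 0.810 to 2.56) and 2.22 as the ratio of the authors' folds, which are not scaled for depth. With a 500 bp window the untreated count of Orai and Stim genes with a gene-end peak was 0, as the Orai2 summit lies 725 bp from the gene. The large induced summit, 722 bp away, left that window too. The induced count stayed at 1 only through the smaller Orai2 peak, 182 bp from the gene end. With a 2 kb window the induced count was 2, as Orai3 entered. Scaling by the local background is not counted, since it was the same multiple in both lists and cancels. With the 10 kb flank cut to 1 kb, 1 member had an induced peak, and with 20 kb 3 had one, as Stim1 entered. Counting peaks within 500 bp as overlapping, 2 of the 3 induced peaks met an untreated one. For the 65 calcium genes, a −log10 q of at least 5 left 4 induced and 1 untreated with a gene-end peak, and a 500 bp window left 5 induced. Counting peaks inside or within 1 kb, a setting added after the data had been seen, gave 16 induced, 9 untreated and 1 IgG gene. In no setting did a member have an IgG peak, but only 0.690% of all genes had one inside or within 10 kb. No paired analysis was possible because each group had 1 library. Leaving out a replicate was not possible for the same reason. Depth limits what the lists can show, since sites below 4 induced, 3 untreated or 2 IgG summit fragments were never listed.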
